A study of Mus musculus with 2 samples.

Results

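Xcr1 cells, found in mouse celiac and superior mesenteric ganglia, were the dendritic cells that carry the transcripts of the chemokine receptor XCR1 or of the dead-cell receptor CLEC9A. A cell barcode was counted as an Xcr1 cell when it held at least 1 unique molecular identifier (UMI, 1 counted RNA molecule) of Xcr1 and Clec9a together, at least 2 UMIs of Irf8, at least 20 UMIs of Cd74 per 10000 UMIs, and fewer than 20 UMIs of C1qa, C1qb and C1qc together per 10000. This rule found 307 of 24873 barcodes. They were 132 barcodes of library 1 (1.05% of them, exact Clopper-Pearson 95% interval 0.878 to 1.24%) and 175 of library 2 (1.43%, 1.22 to 1.65%). These intervals cover counting error only.

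The ganglia are sympathetic ganglia whose axons reach abdominal organs. Both libraries belong to 1 group, ganglia taken from anaesthetized mice and digested and triturated to single cells, and were made with the 10x Genomics 3' v3.1 chemistry. The series names 20 animals aged 7 to 8 weeks with equal numbers of males and females, no genetic modification or treatment is named for these libraries, and the labels do not say which animals went into which library. P-values therefore measure only the spread between these 2 libraries, which may be technical, and every comparison is between cell populations of the same suspensions.

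Conventional dendritic cells take up material in a tissue, cut it into peptides and show these to T cells. The XCR1 lineage, cDC1, is formed under IRF8, BATF3 and ID2 and is known for cross-presentation, in which peptides of engulfed dead cells are loaded on MHC class I for CD8 T cells. Its sister lineage cDC2 depends on IRF4 and carries SIRPA and C-type lectins such as CD209A, while tissue macrophages depend on the receptor CSF1R and make the complement component C1q.

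The values that chose the cells are given here as a description. The summed Xcr1 and Clec9a count had a median of 9 UMIs in library 1 and 8 in library 2, and the Irf8 count medians of 20 and 18. Both receptors were detected in 116 and 147 of the Xcr1 cells. Of the barcodes with an Xcr1 or Clec9a UMI, 392 and 365 in the libraries, 146 and 190 also met the Irf8 threshold. Just inside the threshold on the receptors were 5 and 9 cells with a single UMI, in which Itgae stood at 99.6 and 275.8 UMIs per 1000000 UMIs (counts scaled in this way are written CPM). Just outside it were 16 and 16 barcodes with no Xcr1 or Clec9a UMI that met the other criteria, with Itgae at 12.48 and 0 CPM and the macrophage and cDC2 lectin Mrc1 at 187.2 and 277.9 CPM. Naaa, taken up below, stood at 177.0 and 742.4 CPM inside and 54.1 and 47.0 CPM outside. Wdfy4, also taken up below, stood at 55.3 and 742.4 CPM inside and 166.4 and 111.2 CPM outside. In library 1 it was thus lower inside than outside, and in all Xcr1 cells it stood at 860.1 and 914.7 CPM. The 3 cells of library 2 at exactly 2 Irf8 UMIs had no Itgae UMI. Barcodes kept out by the C1q limit alone, 10 and 9, had Itgae at 51.7 and 213.3 CPM and Mrc1 at 963.0 and 884.5 CPM. Those kept out by a single Irf8 UMI, 7 and 2, had Itgae at 80.9 and 0 CPM. Of 113 and 136 barcodes with at least 5 UMIs of Xcr1 and Clec9a together, the rule kept 106 and 131.

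Markers that the rule did not read matched the label. Itgae, the integrin CD103, was detected in 86.4% and 79.4% of Xcr1 cells of libraries 1 and 2, against 1.09% and 1.12% of endothelial cells, which give the level of free RNA. Wdfy4, a protein needed for cross-presentation of cell-bound antigen, was detected in 97.7% and 96.6% of the cells and the lysosomal amidase gene Naaa in 95.5% and 92.6%. In the Cd209a or Ccr2 cells described below, Itgae was detected in 3.28% and 2.62%, Wdfy4 in 70.5% and 69.6% and Naaa in 71.0% and 77.0%. Median depth was 15201 and 15324 UMIs in Xcr1 cells and 7653.5 and 7962.5 in the endothelial cells. After thinning every barcode to 3000 UMIs, Itgae was still detected in 48.1% and 40.4% of Xcr1 cells. Cd8a, found on the splenic form of this lineage, was detected in 0.758% and 1.14% of the cells, and Cd207, an Xcr1 lineage lectin in some tissues, in 9.85% and 10.3%.

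The libraries held 94521010 and 95235439 UMIs, and Xcr1 cells gave 2124157 and 2741849 of them. Over 5269 genes with at least 50 UMIs in Xcr1 cells of each library, the log2 ratio of the libraries had an SD of 0.29. Of the barcode sequences, 64 occurred in both libraries, and 1 Xcr1 cell of library 1 had such a barcode. RNA of other cell types was present: 5 fibroblast markers together stood at 1335 and 2243 CPM in Xcr1 cells, 1884 and 1903 CPM in the Cd209a or Ccr2 cells and 2068 and 2463 CPM in macrophages. Glial markers stood at 258.0 and 579.5 CPM in Xcr1 cells, 714.4 and 612.3 CPM in Cd209a or Ccr2 cells and 674.1 and 619.8 CPM in macrophages. A fit without the Xcr1 cells of clusters led by glial or fibroblast genes is given below. The part of such RNA in the other populations was not tested. Scrublet, a doublet caller, marked 8 and 17 of the Xcr1 cells. The cDC2 marker list stood at 11.3 and 16.4 CPM in Xcr1 cells against 1652 and 1668 CPM in the Cd209a or Ccr2 cells. This list includes Cd209a, by which the latter cells were chosen, so part of the difference was set by their gate. The 7 plasmacytoid dendritic cell markers together stood at 296.1 and 286.7 CPM in Xcr1 cells, 277.1 and 215.3 CPM in Cd209a or Ccr2 cells and 929.0 and 783.2 CPM in macrophages. Of these 7, Siglech was detected in 21.2% and 14.9% of Xcr1 cells, and Ly6d, Cox6a2 and Klk1 had no UMI. Ccr9 was higher in Xcr1 cells in both comparisons below. Bst2 was lower than in macrophages and did not pass against Cd209a or Ccr2 cells. A UMI of any of the 7 was found in 96.2% and 92.0% of Xcr1 cells and 75.4% and 73.8% of Cd209a or Ccr2 cells. In macrophages it was found in 95.4% and 94.8%. The 5 B cell markers stood at 70.6 and 74.0 CPM, with Cd79a at 0, against 60.7 and 43.5 CPM in Cd209a or Ccr2 cells and 229.0 and 212.4 CPM in macrophages. The neutrophil markers S100a8, S100a9 and Retnlg had no UMI in Xcr1 cells.

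Xcr1 cells were compared with 374 Cd209a or Ccr2 cells (183 and 191), which is the nearest other population: barcodes with at least 2 UMIs of Cd209a and Ccr2 together, the same Cd74 and C1q limits, and no Xcr1, Clec9a or Cd3 UMI. They hold cDC2 and monocyte markers together and are named here by their gate. Ccr2 alone does not part the populations: a UMI of it was found in 86.4% and 89.1% of Xcr1 cells. In the Cd209a or Ccr2 cells it was found in 94.5% and 94.8%. The monocyte marker list, which includes Ccr2, stood at 457.1 and 529.9 CPM in Xcr1 cells against 759.3 and 777.5 CPM. UMIs were summed per library and population, and 12781 genes were tested with edgeR's quasi-likelihood test with the library as a block and Benjamini-Hochberg adjustment. The 13 genes of the gates were left out of tests and counts. At an adjusted p under 0.05, 2994 genes (23.4%) differed, 1420 higher in Xcr1 cells (11.1%) and 1574 lower (12.3%), and all 2994 went the same way in both libraries. The median log2 fold change of all tested genes was -0.00065. Levels below are CPM of all UMIs of the population, library 1 before library 2. Fold changes use edgeR's scaling, so that for abundant genes of nearly equal level the sign of the fold can differ from that of the CPM.

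Of the cDC1 list, 27 genes of which 22 could be tested and 3 were gate genes, 19 were higher in Xcr1 cells, none was lower, and the median log2 fold change was 2.92. This list was assembled with earlier results of these data known. Itgae (chromosome 11, 73090583 to 73147446, GRCm38) stood at 230.2 and 196.2 CPM in Xcr1 cells against 4.12 and 1.75 CPM, a log2 fold change of 6.30 (SE 0.22, edgeR adjusted p = 2.14e-06). Both Xcr1 values lay far above both comparison values. Ifi205, an interferon-inducible gene of the AIM2-like family, stood at 611.1 and 584.3 CPM against 29.2 and 31.2 CPM, a log2 fold change of 4.41 (SE 0.12). Id2, the transcription factor that holds E proteins in check in this lineage, stood at 777.7 and 734.2 CPM against 104.5 and 99.6 CPM, a log2 fold change of 2.99 (SE 0.07).

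The adhesion molecule gene Cadm1 (log2 fold change 2.84, SE 0.10), Wdfy4 (2.73, SE 0.08) and the growth factor receptor gene Flt3 (1.57, SE 0.13) were also higher. The members Batf3, Zbtb46 and Nfil3, all transcription factor genes, did not pass. Batf3, required for the lineage in most tissues, stood at 121.9 and 134.6 CPM in Xcr1 cells against 109.0 and 108.0 CPM, a log2 fold change of 0.35 (SE 0.11, edgeR adjusted p = 0.0507). Zbtb46, a factor of all conventional dendritic cells, stood at 123.8 and 129.1 CPM against 125.8 and 129.8 CPM. Nfil3 stood at 24.0 and 23.3 CPM against 33.7 and 38.9 CPM, with an edgeR adjusted p of 0.0805. Under alternatives Batf3 passed as higher in 3 settings (0.38, 0.47 and 0.48), Nfil3 as lower in 3 (-0.68, -0.81 and -0.64), and Zbtb46 as lower with comparison cells taken by Cd209a alone (-0.48).

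**Figure D1:**
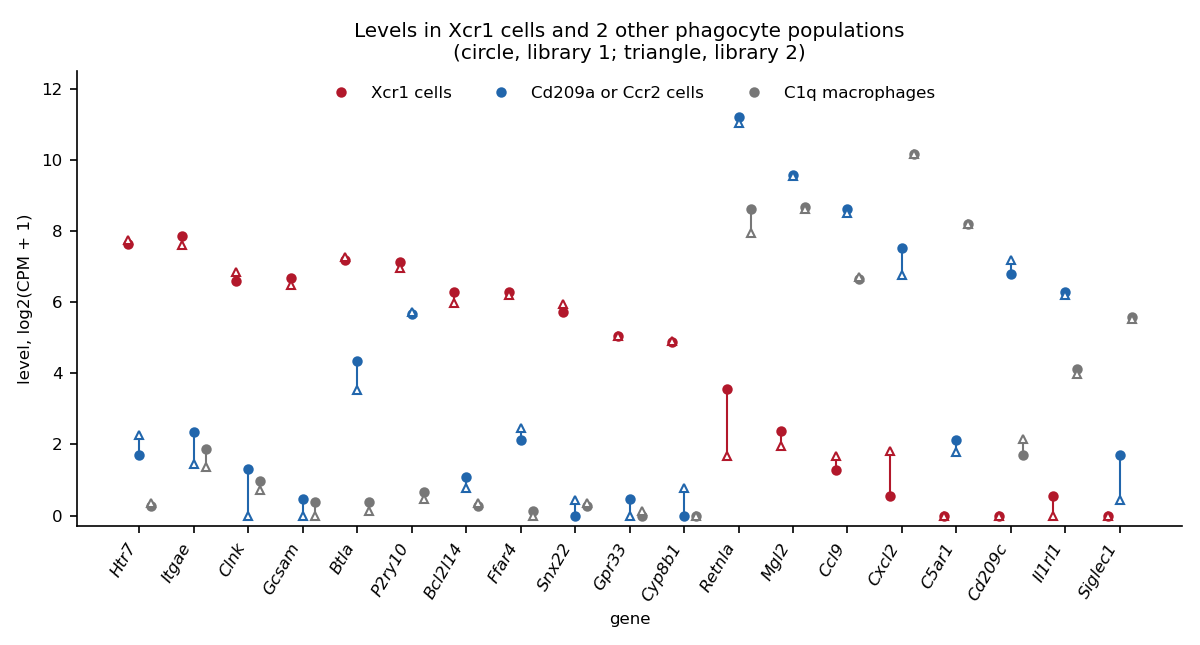
Levels of genes, as log2(CPM + 1), in Xcr1 cells, Cd209a or Ccr2 cells and C1q macrophages, with a circle for library 1 and a triangle for library 2. Symbols of the 2 libraries of a population nearly coincide at high levels and lie further apart at some low ones, such as Retnla in Xcr1 cells. Itgae and Htr7 lie at about 200 CPM in Xcr1 cells and under 5 CPM in the other populations.

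Among genes with the largest folds upward were several receptors and signalling proteins. Htr7, the serotonin receptor 5-HT7 (chromosome 19, 35958734 to 36057507), stood at 197.7 and 214.8 CPM in Xcr1 cells against 2.25 and 3.86 CPM, a log2 fold change of 6.16 (SE 0.19, edgeR adjusted p = 1.27e-06). It was detected in 75.8% and 75.4% of Xcr1 cells and in 0.109% and 0.124% of endothelial cells. Gcsam, which encodes an adaptor first described in germinal centre B cells, stood at 101.2 and 88.3 CPM and had 1 UMI in the comparison cells, a ratio of 518.6 with an exact 95% interval for counting error of 92.6 to 20530. Both libraries showed the gene in the majority of Xcr1 cells, 68.2% and 64.6%. The sorting nexin gene Snx22 had a ratio of 314.3 (56.0 to 12460) against 1 UMI, and Gpr33, an orphan chemoattractant-type receptor gene, one of 179.3 (31.7 to 7126). Treml4 had a ratio of 108.9 (19.1 to 4347) against 1 UMI, and Cyp8b1, a sterol hydroxylase of bile acid synthesis, one of 79.4 (21.6 to 662.4) against 2 UMIs.

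Clnk, an immunoreceptor adaptor gene, stood at 95.6 and 115.6 CPM against 1.498 and 0 CPM (log2 fold change 7.25, SE 0.46). Bcl2l14 (6.32, SE 0.30) and Gpr141b (5.86, SE 0.30) completed the fitted genes of this group, and Gramd2 was at least 28.8-fold higher, the comparison cells being at 0 UMIs. Bounds against 0 are taken at 3 UMIs over both libraries. Gpr141b has a near copy, so reads of the pair could be split between them.

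Among genes with the largest folds downward, Retnla, a secreted resistin-like protein, stood at 10.8 and 2.19 CPM in Xcr1 cells against 2375 and 2111 CPM, a log2 fold change of -8.45 (SE 0.27, edgeR adjusted p = 1.33e-06). The lectin gene Mgl2 stood at 4.24 and 2.92 CPM against 760.5 and 746.3 CPM (-7.64, SE 0.13), and the chemokine gene Ccl9 at 1.41 and 2.19 CPM against 393.9 and 361.6 CPM (-7.55, SE 0.18). In each case both Xcr1 values lay below both comparison values. Il1rl1, the IL-33 receptor gene, had 1 UMI in Xcr1 cells, a ratio of 366.6 (65.4 to 14510) towards the comparison cells. No UMI was counted in Xcr1 cells for Cd209c (at least 207.4-fold lower), Pilra (at least 80.8-fold), Adgre4 (at least 69.6-fold), Cd209d (at least 42.6-fold), Cd300lf (at least 39.95-fold), Aqp9 (at least 35.5-fold), Sirpb1b (at least 29.7-fold) or Sirpb1a (at least 21.2-fold). The Cd209 and Sirpb1 genes have near-identical relatives, and their separate values are uncertain.

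Of 16 tested cDC2 genes, 12 were lower and 1 higher, with a median of -3.40. The transcription factor gene Irf4 stood at 1.88 and 0.365 CPM against 114.2 and 92.2 CPM (log2 fold change -6.50, SE 0.31). The lectin gene Clec10a (-5.91), the integrin gene Itgam (-5.73) and the phagocytosis checkpoint gene Sirpa (-4.67) were lower as well. Among 34 tested transcription factors of myeloid cells, 7 were higher and 17 lower, with a median of -0.34. Cebpb, of inflammatory myeloid cells, stood at 10.4 and 13.5 CPM against 329.5 and 333.2 CPM (-4.67). Zeb2, whose protein represses Id2 in dendritic cell progenitors, stood at 69.7 and 179.1 CPM against 1340 and 1441 CPM (-3.42, SE 0.25). The values of Zeb2 in Xcr1 cells differed more between libraries than those of Id2.

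**Figure D2:**
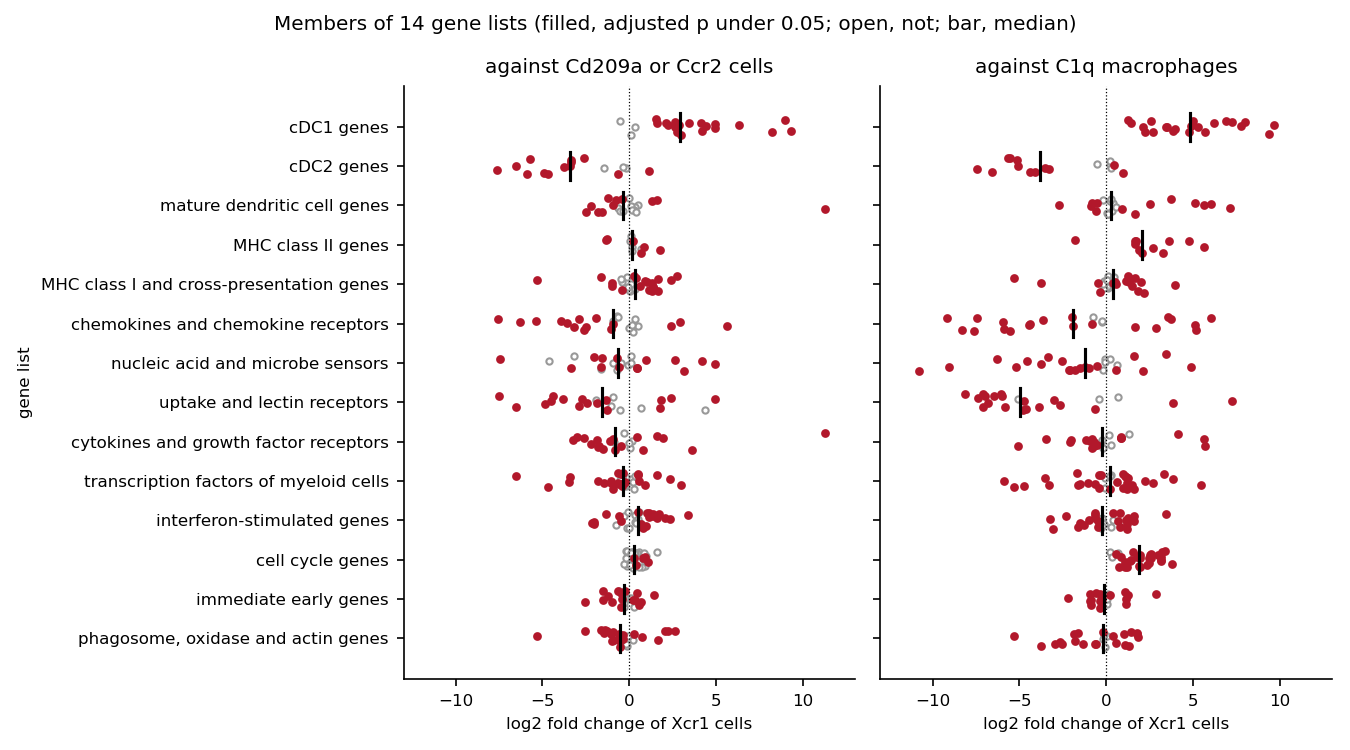
Log2 fold change of each tested gene in 14 gene lists, for Xcr1 cells against Cd209a or Ccr2 cells and against C1q macrophages; filled points had an edgeR adjusted p under 0.05, open points did not, and bars are list medians. The cDC1 list lies to the right of 0 with medians of 2.92 and 4.81, and the cDC2 list to the left with medians of -3.40 and -3.81.

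Of 11 tested MHC class II genes (Cd74 was a gate gene), 4 were higher and 2 lower, with a median of 0.15. The classical chain H2-Aa stood at 5692 and 5664 CPM in Xcr1 cells against 6204 and 5807 CPM, and did not pass (edgeR adjusted p = 0.757). The other classical chain H2-Ab1 stood at 6515 and 6183 CPM against 6781 and 6216 CPM and did not pass either (0.261). The genes of H2-O, which restrains peptide exchange on class II, were higher: H2-Ob stood at 132.3 and 137.9 CPM against 40.4 and 43.1 CPM (log2 fold change 1.79, SE 0.12) and H2-Oa at 85.2 and 85.3 CPM against 52.4 and 49.1 CPM (0.85, SE 0.13). The Xcr1 and comparison values did not overlap for either gene. When the comparison cells were taken by Cd209a alone, 2 class II genes of 11 were higher and 5 lower, against 8.73% and 10.3% of all tested genes. H2-Oa (0.31) and Ciita (0.40) then no longer passed, and the classical chains H2-Aa (-0.29), H2-Ab1 (-0.23) and H2-Eb1 (-0.19) passed as lower. H2-Eb1 did not pass in the comparison above (0.13) but passed as higher in 3 other settings (0.13, 0.13 and 0.25), so its direction depended on the setting. Ciita, the master activator of class II transcription, was higher (0.66, SE 0.13), H2-DMb1 was higher by a small step (0.24, edgeR adjusted p = 0.039), a call lost under 8 alternatives, and H2-DMb2 (-1.33) and the protease gene Ctss, which trims the invariant chain (-1.28), were lower. H2-DMb1 and H2-DMb2 are near copies, so their separate values are uncertain.

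Of 27 genes of MHC class I and cross-presentation, 14 were higher and 5 lower, with a median of 0.30. Psmb9, a catalytic subunit of the immunoproteasome that cuts peptides for class I, stood at 365.8 and 352.3 CPM against 80.1 and 66.3 CPM, a log2 fold change of 2.40 (SE 0.10, edgeR adjusted p = 4.47e-06). Its partner Psmb8 stood at 554.1 and 517.5 CPM against 228.8 and 218.1 CPM (1.36, SE 0.07), and the proteasome activator gene Psme1 at 689.7 and 757.5 CPM against 253.1 and 249.0 CPM (1.63, SE 0.08). The peptide transporter genes Tap1, at 92.3 and 107.6 CPM against 44.6 and 38.2 CPM (1.38, SE 0.15), and Tap2 (1.66, SE 0.13) were higher too. For these genes both libraries of Xcr1 cells exceeded both libraries of the comparison cells. Rab43, a vesicle GTPase gene with a known part in cross-presentation by this lineage, stood at 483.0 and 531.0 CPM against 269.2 and 272.1 CPM (1.01, SE 0.07). The class I heavy chains H2-K1, at 672.7 and 651.4 CPM against 685.2 and 626.4 CPM, and H2-D1, at 1026 and 1043 CPM against 1144 and 985.8 CPM, did not pass.

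The largest negative fold of that list belonged to Cybb (chromosome X, 9435252 to 9487771), the catalytic subunit of the phagocyte NADPH oxidase NOX2, which keeps phagosomes from turning acid. It stood at 12.2 and 9.12 CPM in Xcr1 cells against 447.8 and 464.3 CPM, a log2 fold change of -5.34 (SE 0.12, edgeR adjusted p = 6.03e-07). The lysosomal protease gene Lgmn stood at 49.0 and 47.1 CPM against 160.3 and 158.5 CPM (-1.63, SE 0.09) and the lysosomal reductase gene Ifi30 was lower, at -0.98 on the log2 scale (SE 0.08). Of 25 tested phagosome, oxidase and actin genes, 6 were higher and 15 lower, with a median of -0.52. Cst3, an inhibitor of cysteine proteases, stood at 18660 and 18010 CPM against 4941 and 4614 CPM (2.04, SE 0.03), and the endosomal GTPase gene Rab7b at 264.6 and 276.1 CPM against 50.6 and 41.4 CPM (2.66, SE 0.15).

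**Figure D3:**
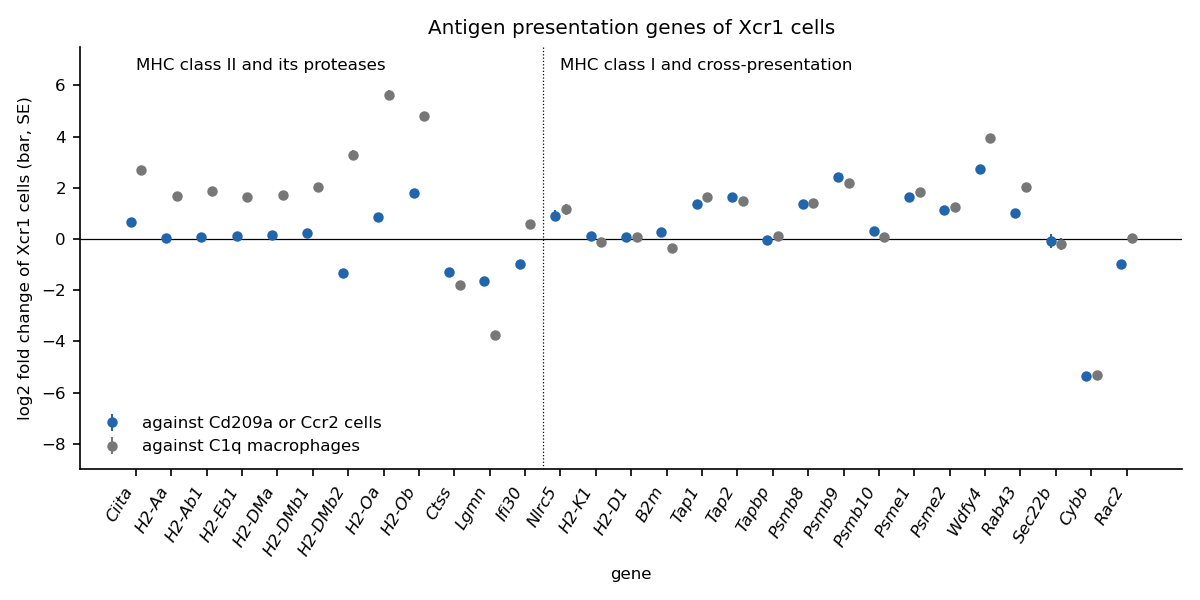
Log2 fold changes of antigen presentation genes in Xcr1 cells against Cd209a or Ccr2 cells and against C1q macrophages, with bars for the SE of the fit. Psmb9 lies at 2.40 and 2.18 and Cybb at -5.34 and -5.33, and H2-Aa at 0.02 and 1.68.

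Of 25 tested sensors, 7 were higher and 7 lower, with a median of -0.65. Tlr3, an endosomal sensor of double-stranded RNA, stood at 191.6 and 205.7 CPM against 11.2 and 11.9 CPM, a log2 fold change of 4.20 (SE 0.13, edgeR adjusted p = 1.33e-06). Tlr11, a sensor of parasite profilin, was higher (2.61, SE 0.26), as was Tlr13, a sensor of bacterial ribosomal RNA (3.15, SE 0.37). Tlr12, whose product pairs with TLR11, had 1 UMI in the comparison cells and a ratio of 31.8 (5.25 to 1299). The lipopolysaccharide co-receptor gene Cd14 (-3.36) and the inflammasome gene Nlrp3 (-2.02) were lower, and Tlr8 was at 0 UMIs in Xcr1 cells (at least 6.46-fold lower). Of 22 tested uptake and lectin receptors, 4 were higher and 12 lower, with a median of -1.59. Havcr2, the phosphatidylserine receptor TIM-3, stood at 334.3 and 320.2 CPM against 75.3 and 58.6 CPM (2.39, SE 0.15), and Cd36 (1.75) and the endocytic lectin gene Ly75 (4.94) were higher. The mannose receptor gene Mrc1 stood at 12.2 and 15.3 CPM against 351.6 and 337.0 CPM (-4.52, SE 0.10), and the Fc receptor gene Fcgr3 was lower (-4.83).

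Of 23 tested chemokine and chemokine receptor genes, 3 were higher and 12 lower, with a median of -0.92. Cxcr3, a receptor for the chemokines CXCL9 and CXCL10, stood at 52.7 and 50.7 CPM in Xcr1 cells against 1.498 and 0.701 CPM, a log2 fold change of 5.65 (SE 0.33, edgeR adjusted p = 1.66e-05). Its 2 ligand genes went in opposite directions. Cxcl9 stood at 113.0 and 58.7 CPM against 9.74 and 23.2 CPM (2.38, SE 0.43), and Cxcl10 at 16.95 and 14.95 CPM against 259.1 and 167.3 CPM (-3.61, SE 0.15). A Cxcl9 UMI was held by 15 and 27 Xcr1 cells (11.4% and 15.4%), and in library 1 a single barcode held 100 of the 240 UMIs. The inflammatory receptor gene Ccr1 was lower (-5.39). Of 23 tested cytokine and growth factor receptor genes, 6 were higher and 12 lower, with a median of -0.84. Kit, the stem cell factor receptor, stood at 152.5 and 136.8 CPM against 14.6 and 11.2 CPM (3.59, SE 0.19), and Il1b at 236.3 and 291.4 CPM against 964.9 and 1061 CPM (-1.84, SE 0.09).

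Il12b, the p40 chain of interleukin 12, stood at 28.7 and 78.4 CPM in Xcr1 cells and had no UMI in the comparison cells, so it was at least 104.4-fold higher (edgeR adjusted p = 0.000478). Only 5.30% and 6.29% of Xcr1 cells held a UMI of it. Without barcodes that held Ccr7 the fitted log2 fold change was 8.46 in place of 11.29. Single-library log2 ratios with 1 CPM added were 4.89 in library 1 and 6.31 in library 2.

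Xcr1 cells were compared with 2245 C1q macrophages (1129 and 1116), barcodes with at least 20 C1q UMIs per 10000, at least 2 Csf1r UMIs and no Xcr1 or Clec9a UMI, which are the most numerous phagocytes of the ganglia. In the same fit, 5006 genes (39.2%) differed, 2699 higher in Xcr1 cells (21.1%) and 2307 lower (18.1%), with a median over all tested genes of -0.038. By CPM, 4944 of the 5006 went the same way in both libraries. Median depth was 8476 and 8642.5 UMIs in macrophages, lower than in Xcr1 cells. This comparison uses the same Xcr1 sums as the one above, and the values are therefore not independent of it.

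All 22 tested cDC1 genes were higher than in macrophages, with a median of 4.81. Batf3 stood at 121.9 and 134.6 CPM against 32.1 and 31.3 CPM (log2 fold change 2.26, SE 0.11, edgeR adjusted p = 1.81e-06). Flt3 stood at 191.6 and 191.5 CPM against 3.52 and 5.27 CPM (5.68, SE 0.16). Id2 (3.82), Zbtb46 (2.68) and Nfil3 (1.25) were higher as well, so that all 5 named factors and receptors of dendritic cell development stood above macrophages.

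Btla, an inhibitory lymphocyte receptor, stood at 145.0 and 152.5 CPM against 0.293 and 0.0942 CPM (log2 fold change 9.68, SE 0.34). Htr7 stood at 0.195 and 0.283 CPM in macrophages (9.85, SE 0.21), and P2ry10, a lysophosphatidylserine receptor gene, at 0.586 and 0.377 CPM against 138.4 and 122.9 CPM in Xcr1 cells (8.26, SE 0.20). Bcl2l14 (8.28), Snx22 (7.98) and Gpr141b (7.69) completed the fitted folds upward. The fatty acid receptor gene Ffar4 had 1 UMI in macrophages and a ratio of 1569 (279.9 to 62150), and the retinol dehydrogenase gene Dhrs9 one of 818.9 (145.2 to 32510). Gpr33 had a ratio of 677.4 (119.8 to 26920) against 1 UMI and Gcsam one of 653.1 (222.1 to 3179) against 3 UMIs. Cyp8b1 (at least 200.1-fold) and Treml4 (at least 137.2-fold) were at 0 UMIs in macrophages.

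Among genes lower than in macrophages, Cxcl2, a neutrophil chemoattractant, stood at 0.471 and 2.55 CPM in Xcr1 cells against 1164 and 1147 CPM (log2 fold change -9.19, SE 0.35, edgeR adjusted p = 6.19e-07). The complement receptor gene C5ar1 had no UMI in Xcr1 cells and stood at 295.2 and 292.3 CPM in macrophages, at least 476.4-fold lower. Siglec1, a sialic acid receptor of macrophages (at least 74.7-fold), Ms4a14 (at least 74.3-fold), Tlr8 (at least 69.9-fold), Gpr165 (at least 47.5-fold), Spic, a factor of iron-recycling macrophages (at least 40.7-fold), Tmem273 (at least 39.7-fold), Cryba4 (at least 33.1-fold), Adgre4 (at least 26.1-fold), Cd209d (at least 25.9-fold) and Mmp13 (at least 22.3-fold) were also without a UMI in Xcr1 cells. Of the uptake and lectin receptors, 17 of 22 were lower and 2 higher, with a median of -4.94. Mrc1 stood at 2174 and 2256 CPM in macrophages (-7.07, SE 0.10).

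Of the MHC class II genes, 10 of 11 were higher than in macrophages and 1 lower, with a median of 2.04. Xcr1 cells had to meet the Cd74 limit and macrophages did not, so these class II counts are not free of the gates. Of the macrophages, 521 of 1129 and 534 of 1116 met that limit. With macrophages held to it, 4349 genes differed (2338 higher, 2011 lower), and no class II call was lost. H2-Ab1 stood at 2064 and 2038 CPM in macrophages (log2 fold change 1.87, SE 0.04), below both values in Xcr1 cells, and H2-Oa at 2.05 and 1.98 CPM (5.63, SE 0.17). Ctss was the exception (-1.81). Of the MHC class I and cross-presentation genes, 13 were higher and 4 lower, with a median of 0.37: Psmb9 (2.18), Rab43 (2.03) and Tap1 (1.64) were higher, and Cybb (-5.33) and Lgmn (-3.75) lower. H2-K1 and H2-D1 did not pass here either. B2m was lower than in macrophages (-0.37) and higher than in Cd209a or Ccr2 cells (0.25), calls lost under 2 and 5 alternatives.

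Of the remaining lists, the cell cycle genes stood apart from the all-gene median, with 28 of 32 higher than in macrophages, none lower and a median of 1.91. Top2a, which untangles chromosomes, stood at 96.0 and 112.0 CPM against 9.18 and 19.0 CPM (log2 fold change 3.14, SE 0.26). Against Cd209a or Ccr2 cells, where Top2a stood at 103.7 and 91.5 CPM, it did not pass, and 5 of 32 cell cycle genes were higher and none lower. Without barcodes that held 3 or more UMIs of 13 mitotic genes, 4 of 20 tested cell cycle genes were higher than in macrophages and 1 was lower, against 18.9% higher and 16.8% lower of all genes tested in that setting. The 13 genes all belong to the cell cycle list, so this smaller number was in part set by the filter.

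Myeloid transcription factors were higher in 17 and lower in 13 of 34 against macrophages, and Bcl11a, needed for dendritic and lymphoid progenitors, stood at 75.8 and 87.9 CPM against 2.44 and 1.88 CPM (log2 fold change 5.48, SE 0.19). Sensors were higher in 5 and lower in 15 of 25: Tlr7, an endosomal sensor of single-stranded RNA, stood at 0.942 and 1.46 CPM against 116.3 and 113.0 CPM (-6.27, SE 0.24). Chemokine genes were higher in 7 and lower in 13 of 23. Cytokine genes were higher in 6 and lower in 11 of 23, and phagosome genes higher in 9 and lower in 12 of 25. Mature dendritic cell genes were higher in 8 and lower in 5 of 22 against macrophages, and higher in 3 and lower in 8 against Cd209a or Ccr2 cells. Without barcodes holding Ccr7, 4 were higher and 8 lower of 20 against macrophages (all tested genes: 20.8% and 17.9%), and 1 was higher and 10 lower of 20 against Cd209a or Ccr2 cells (11.1% and 12.8%). Immediate early genes, which cells switch on rapidly after a stimulus, were higher in 6 and lower in 11 of 22 against macrophages and higher in 6 and lower in 10 against Cd209a or Ccr2 cells.

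Interferon-stimulated genes were higher in 14 and lower in 6 of 31 against Cd209a or Ccr2 cells (median 0.52), and higher in 11 and lower in 12 against macrophages (median -0.26). Ifi44 stood at 80.5 and 76.6 CPM in Xcr1 cells against 9.36 and 7.01 CPM in Cd209a or Ccr2 cells (log2 fold change 3.38, SE 0.24, edgeR adjusted p = 4.16e-05). Slfn5, a nuclear regulator of the response, stood at 358.3 and 385.9 CPM against 95.5 and 98.6 CPM (2.04, SE 0.09). Irf7 (2.36), which amplifies the interferon response, was higher, while the guanylate-binding protein genes Gbp2, Gbp3 and Gbp7, which are near copies of each other, were lower. Rsad2, Ifit1 and Ifit3, antiviral effectors, did not pass.

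The 250 bases upstream of gene starts were searched on both strands for GAAA repeated after any 2 bases, the element that interferon-activated factors are known to bind. It was held by 15 of the 25 interferon-stimulated genes with a RefSeq entry (60%), against 356 of 9957 tested genes with an entry (3.58%) and 2 of 22 cDC1 genes (9.09%). A gene counted when any of its listed starts had a match, and a match is no proof of binding. GGAA followed after any 2 bases by GAAA, a composite site of PU.1 with IRF4 or IRF8, was held by 2 of the 25 against 254 of the 9957 (2.55%) and by 1 of the 22 cDC1 genes. TGANTCA, the AP-1 site, was held by 9 of the 25 against 542 of the 9957 (5.44%) and by 3 of the 22 cDC1 genes. The list was assembled from genes known to respond to interferon, so its share is a description. Windows of 4 genes of this list are printed to show the repeat: Rsad2, Isg15 and Ifit3, which were among the leading genes of the interferon-rich cells described below, and Stat2, a transcription factor of the response. Capitals mark each match, which reads TTTC, 2 bases, TTTC where it lies on the opposite strand. They are from RefSeq on GRCm38.p6, read in the direction of the gene, and hold no exon of the GENCODE M21 annotation. Rsad2 is chr12:26456453-26456702 on the minus strand, Isg15 is chr4:156200819-156201068 on the minus strand, Ifit3 is chr19:34583279-34583528 on the plus strand, and Stat2 is chr10:128270248-128270497 on the plus strand.
Rsad2: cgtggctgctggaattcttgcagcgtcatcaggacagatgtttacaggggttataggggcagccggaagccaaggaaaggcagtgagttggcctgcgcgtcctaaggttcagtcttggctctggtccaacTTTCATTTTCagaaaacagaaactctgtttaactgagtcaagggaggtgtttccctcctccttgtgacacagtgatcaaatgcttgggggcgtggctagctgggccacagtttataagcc
Isg15: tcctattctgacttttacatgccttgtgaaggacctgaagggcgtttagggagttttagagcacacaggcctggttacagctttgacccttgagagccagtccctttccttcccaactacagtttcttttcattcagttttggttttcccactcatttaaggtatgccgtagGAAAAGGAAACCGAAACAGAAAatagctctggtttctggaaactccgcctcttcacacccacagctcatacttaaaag
Ifit3: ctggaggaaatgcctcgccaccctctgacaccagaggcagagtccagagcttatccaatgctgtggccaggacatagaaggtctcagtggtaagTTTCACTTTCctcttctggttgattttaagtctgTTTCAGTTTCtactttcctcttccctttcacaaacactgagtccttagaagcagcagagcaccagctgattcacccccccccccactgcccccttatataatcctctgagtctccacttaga
Stat2: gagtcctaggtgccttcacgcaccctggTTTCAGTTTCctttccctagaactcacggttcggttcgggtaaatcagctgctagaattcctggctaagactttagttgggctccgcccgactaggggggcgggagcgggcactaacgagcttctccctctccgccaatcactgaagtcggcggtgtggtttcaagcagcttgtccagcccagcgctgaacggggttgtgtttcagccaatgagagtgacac
In Isg15, 3 overlapping matches begin 78, 72 and 66 bases before the start, Ifit3 holds 2 matches, and Rsad2 and Stat2 hold 1 each.

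The Xcr1 cells themselves were clustered on their own counts, which gave 8 clusters. The genes that lead a cluster were used to form it, and the values below describe the cells without a test. Cluster 2, with 22 and 32 cells (16.7% and 18.3% of Xcr1 cells), was led by Rsad2, Isg20, Isg15 and Ifit2. Summed interferon-stimulated genes stood there at 13400 and 13370 CPM, against 2034 to 5236 CPM over the other clusters and libraries. These 54 cells held 68.4% of the 1835 Isg15 UMIs of Xcr1 cells and 50.6% of the UMIs of the whole list. None of them was marked as a doublet, and both libraries gave nearly the same level. The interferon list was thus uneven among Xcr1 cells, and the levels given for whole Xcr1 sums mix cells with high and low values.

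Cluster 5, with 10 and 12 cells, was led by Hist1h2ap, Top2a and Ube2c and held 85.1% of the 511 Top2a UMIs. At least 3 UMIs of 13 mitotic genes were found in 20.5% (exact 95% interval 13.9 to 28.4%) and 18.3% (12.9 to 24.8%) of Xcr1 cells, in 13.7% and 17.8% of Cd209a or Ccr2 cells, and in 2.21% and 2.87% of macrophages. After thinning to 3000 UMIs the shares were 9.16% and 7.60%, 6.70% and 8.99%, and 0.636% and 1.12%. This left out 1 and 4 Xcr1 cells, 4 and 2 Cd209a or Ccr2 cells, and 29 and 47 macrophages of lower depth. At equal depth the share in macrophages was the lowest of the 3, and the differences between populations were not tested.

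Cluster 8, with 3 and 5 cells, was led by Il12b, Ccr7, Ccl22 and Rgs1, genes of the mature state in which dendritic cells leave for lymph nodes. It held 77.2% of the 276 Il12b UMIs, 84.4% of the 147 Ccr7 UMIs and 75.4% of the 114 Ccl22 UMIs. The co-stimulatory gene Cd40 stood there at 336.3 and 236.0 CPM. The MHC class II list, summed here with the gate gene Cd74, stood at 62600 and 49200 CPM, against 32010 and 32550 CPM in all Xcr1 cells. The class I list stood at 17050 and 14110 CPM against 8108 and 8182 CPM, and Itgae at 25.9 and 26.2 CPM. A Ccr7 UMI was found in 5 of 132 Xcr1 cells (3.79%, exact 95% interval 1.24 to 8.62%) and 6 of 175 (3.43%, 1.27 to 7.31%), against 0.327% and 0.124% of endothelial cells and 8.74% and 10.5% of Cd209a or Ccr2 cells. After thinning to 3000 UMIs it was found in 3.82% and 2.34% of Xcr1 cells and in 2.79% and 5.29% of Cd209a or Ccr2 cells. These shares rest on few cells. Apol7c, another gene of the mature list, had 16 UMIs, all in 1 barcode.

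Clusters 3 and 4, of 24 and 28 cells each, differed in early response genes. The immediate early list stood at 4224 and 3002 CPM in cluster 3, at 15490 and 18070 CPM in cluster 4 and at 13490 and 12760 CPM in all Xcr1 cells, and cluster 7 of library 1 reached 25090 CPM. Atf3 was at 48.6 CPM in cluster 3 and 951.1 CPM in cluster 4, and Nr4a2, an early nuclear receptor gene, at 25.9 and 845.1 CPM. Cluster 1, with 41 and 45 cells, was led by the neuronal genes Cntn5, Fgf14 and Rbfox1, and 78.9% of the 403 Cntn5 UMIs of all Xcr1 cells came from 1 barcode of library 1. Cluster 6 (4 and 13 cells) was led by Csmd1 and the glial cadherin gene Cdh19 and held 50.02% of the glial-marker UMIs, with 41.2% of its cells marked as doublets. Cluster 7 (4 and 12 cells) was led by the fibroblast genes Dcn and Apod and held 89.2% of the fibroblast-marker UMIs, with 93.8% of its cells marked. When clusters 6 and 7 were left out, 3887 genes differed from Cd209a or Ccr2 cells and 5870 from macrophages, a larger number in both comparisons. Only Xcr1 cells were removed in this way, and the other populations kept their fibroblast and glial RNA. When marked doublets were removed from all populations, 3031 and 4964 genes differed. Without clusters 6 and 7, 13.5% of 12713 tested genes were higher than in Cd209a or Ccr2 cells and 17.1% lower. Of 11 class II genes 6 were higher and 2 lower, of 31 interferon-stimulated genes 17 were higher and 6 lower, and of 32 cell cycle genes 9 were higher and none lower.

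**Figure D4:**
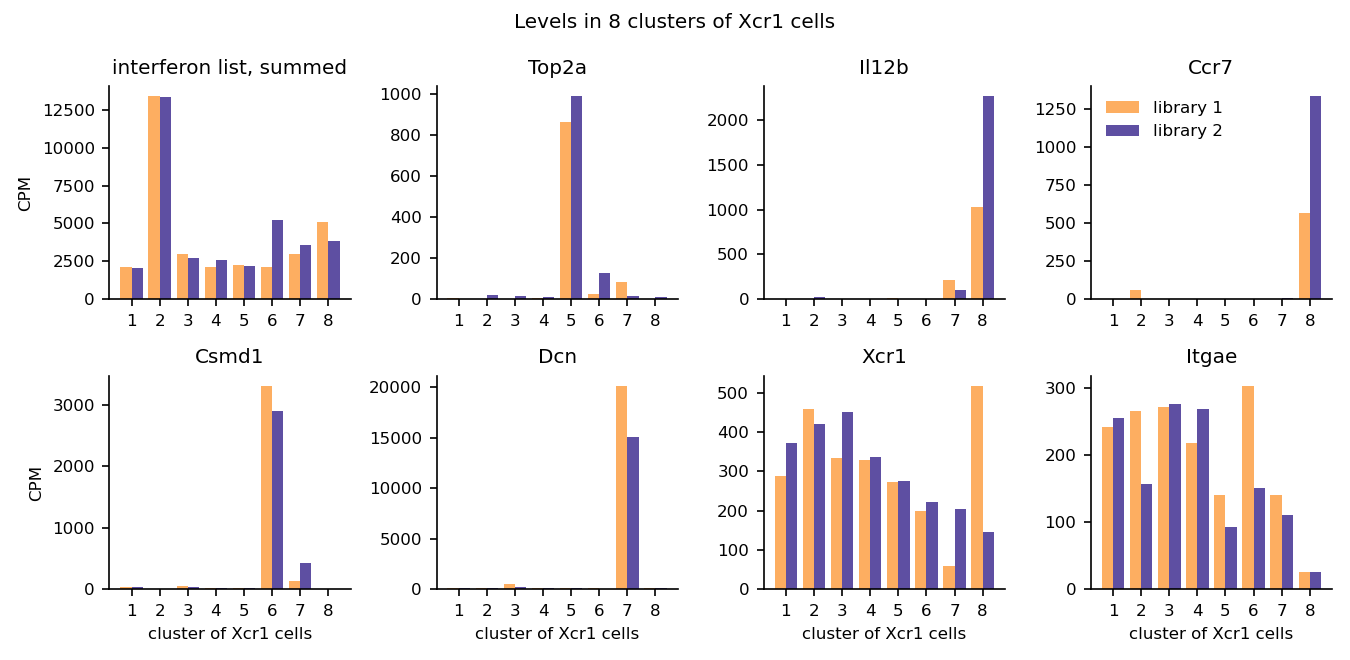
CPM of genes and lists in the 8 clusters of Xcr1 cells, with a bar for each library. The interferon list peaks in cluster 2 at 13400 and 13370 CPM, Top2a in cluster 5 at 860.4 and 987.5 CPM, and Il12b in cluster 8 at 1035 and 2268 CPM.

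Ligands of receptors that mark Xcr1 cells were looked up in the other populations after the values of the receptors were seen, and are given as levels without a test. Xcl1, the ligand of XCR1, stood at 246.3 and 520.6 CPM in 30 and 35 T cell barcodes and at 1369 and 1095 CPM in 3 and 4 natural killer cell barcodes, with 1 and 0 UMIs in Xcr1 cells. Kitl, the ligand of KIT, stood at 883.4 and 866.8 CPM in endothelial cells, 187.1 and 213.6 CPM in neurons with Th or Dbh, and 120.4 and 118.9 CPM in fibroblasts. Flt3l, the ligand of FLT3, stood at 14.9 and 15.1 CPM in fibroblasts and 14.04 and 13.8 CPM in endothelial cells. The levels of these ligand genes in the libraries lay close together except for Xcl1, which rests on few barcodes. For the serotonin receptor gene Htr7, Tph1, the enzyme of serotonin synthesis outside the brain, did not exceed 1.88 CPM in any population examined, and Ddc, which completes both serotonin and dopamine synthesis, stood at 773.1 and 733.5 CPM in the neurons. The populations examined were the phagocytes, T cells, natural killer cells, endothelial cells, fibroblasts, glia and neurons. Other cells, such as mast cells, were not gated, so their Tph1 level is not known here. Htr7 itself did not exceed 1.70 CPM in the examined populations outside the phagocytes.

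**Figure D5:**
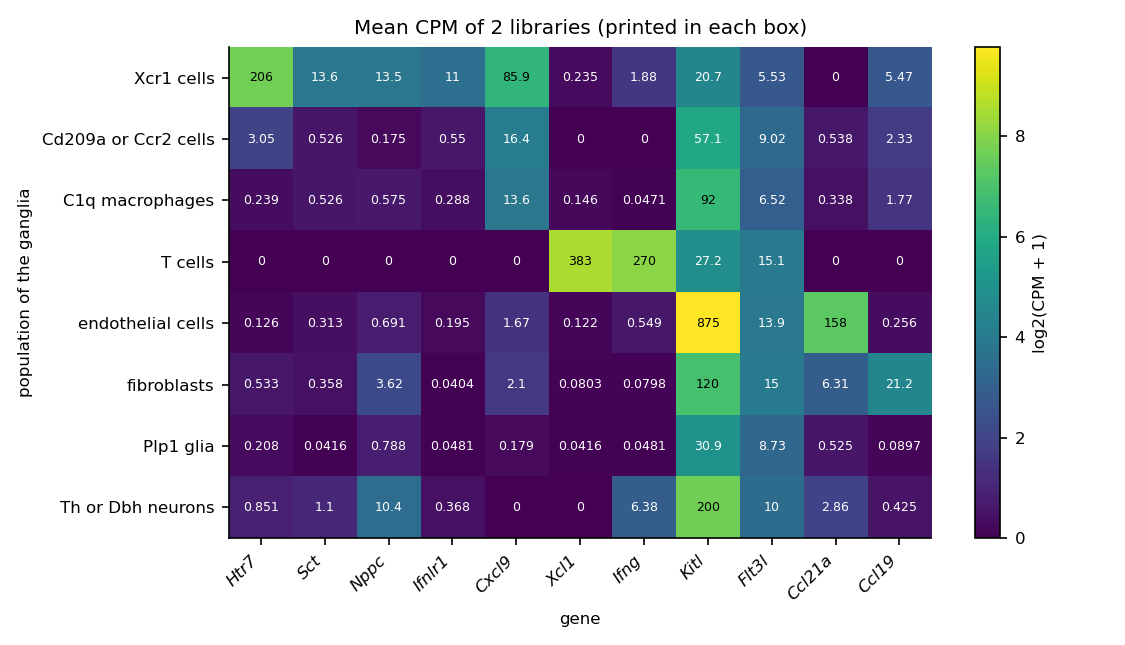
Mean CPM over the 2 libraries of receptor and ligand genes in the populations of the ganglia, printed in each box and coloured by log2(CPM + 1). Of the populations drawn, Htr7 is highest in Xcr1 cells, Xcl1 in T cells and Kitl in endothelial cells.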

How the data were processed

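Single-cell RNA was measured in 2 libraries of mouse celiac and superior mesenteric ganglia. The deposited values are raw counts of UMIs per gene and barcode, with no normalization, per the file headers and the values themselves. Reads were processed with Cell Ranger 6.1.2 on mm10, per the submitters' processing notes, which as used here name no annotation, cell filter or rule on introns or strand. Genes placed antisense or overlapping another gene are therefore uncertain. The files held 24873 barcodes with 1501 to 44898 UMIs. No further cell filter was applied. Doublets were marked with Scrublet in scanpy 1.11.5 and kept, and their removal is an alternative.

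Xcr1 cells, Cd209a or Ccr2 cells and C1q macrophages were gated on UMIs as described in the results. UMIs were summed per library and population (6 sums), filtered with filterByExpr, scaled by TMM and tested with edgeR 4.0.16 in R 4.3.3, with library as a block, since the populations of a library come from 1 suspension. This left 2 residual degrees of freedom and prior degrees of freedom of 5.58. P-values were adjusted by Benjamini-Hochberg over 12781 genes. The 13 gate genes were left out. The tests were tried on simulated data. DESeq2 1.42.0 was an alternative. Genes named were, per comparison, the 12 of largest fold each way with at least 30 UMIs in the higher population of each library, up to 4 of largest fold each way in each list, and members of the cDC1, MHC class II and cross-presentation lists; gene models, mitochondrial, ribosomal, immunoglobulin and sex-linked genes were left out, and other names were chosen after their values were seen. The members and lists were chosen with earlier results of these data known. Xcr1 cells were clustered on 1500 variable genes, 15 principal components and 15 neighbours with Leiden (leidenalg 0.10.2, resolution 0.5). Shares carry exact Clopper-Pearson 95% intervals. Positions are from GENCODE M21 on GRCm38, and upstream sequences from RefSeq. Some genes are not reported here.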

Additional observations from a re-analysis of the deposited data

How the results depend on the processing

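The number of genes that differed from Cd209a or Ccr2 cells was 1663 (819 higher, 844 lower) with barcodes thinned to 3000 UMIs, where 7695 genes could be tested, and 1949 (915 and 1034) with the Wald test of DESeq2. Against macrophages it was 3074 (1559 and 1515) after thinning and 3353 with DESeq2. With no filter on low counts the median over all genes against macrophages moved from -0.038 to -0.21 and 2702 genes were higher and 2995 lower. Without the library block, which pairs the populations of a suspension, 2934 and 5049 genes differed (no replicate block). The share of Xcr1 cells among barcodes of library 2 was 1.11% when the rule was applied to thinned UMIs. The share with 3 or more UMIs of the 33 cell cycle genes, 99.2% and 97.7%, fell to 72.5% and 72.5% after thinning and to 20.5% and 18.3% for 13 mitotic genes, an alternative chosen after seeing the data, as were those that drop mitotic, Ccr7 or glial and fibroblast barcodes. In each comparison 80 genes were followed under the alternatives, and none of these that passed in the fit of the report changed direction. The other genes were not followed in this way. The balance of higher and lower genes turned against macrophages with no filter. H2-Eb1, which did not pass in the fit of the report against Cd209a or Ccr2 cells, passed as higher in 3 settings and as lower in 1. Of gene values followed under the alternatives, 21 against Cd209a or Ccr2 cells and 5 against macrophages no longer passed, and 20 and 2 newly passed: H2-DMb1, B2m, H2-Oa, Ciita, Cyp8b1 (DESeq2) and Tlr12 (DESeq2, against macrophages) were among the calls lost. The cause was not tested. Leaving out a library leaves 1 sum per population, so only log2 ratios of single libraries were computed then. Depth limits what can be said of genes with few UMIs in the smallest clusters, of 8 to 22 cells.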

Other observations

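Some further genes of Xcr1 cells were picked after their values were seen and are given as values. Jaml, an adhesion protein of leukocytes, stood at 322.5 and 368.7 CPM in Xcr1 cells, 70.8 and 75.1 CPM in Cd209a or Ccr2 cells and 5.37 and 5.93 CPM in macrophages. Sct, the hormone secretin, stood at 15.1 and 12.04 CPM in Xcr1 cells and had 3 UMIs in Cd209a or Ccr2 cells, a ratio of 24.6 with a counting interval of 8.05 to 122.3, and it was detected in 9.85% and 11.4% of Xcr1 cells. Its receptor gene Sctr stood at 86.8 and 120.8 CPM in neurons with Th or Dbh and at 4.24 and 1.09 CPM in Xcr1 cells. The natriuretic peptide gene Nppc stood at 17.9 and 9.12 CPM in Xcr1 cells, a ratio of 71.5 (12.4 to 2868) to Cd209a or Ccr2 cells, but in each library a single barcode held 17 of 38 and 13 of 25 of its UMIs, only 5 and 8 Xcr1 cells held the gene, and neurons with Th or Dbh stood at 11.9 and 8.84 CPM. Ifnlr1, a chain of the interferon lambda receptor, stood at 9.89 and 12.04 CPM in Xcr1 cells, a ratio of 20.4 (6.63 to 102.1), while no UMI of Ifnl2 or Ifnl3 was counted in any population examined.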
